A study of Mus musculus with 2 samples.

Results

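Of 68349 sites of open chromatin shared by both libraries of mouse gastrocnemius, 12826 (18.8%, 95% Wilson interval 18.5 to 19.1%) lay in a later intron, that is, in the second or any following intron of the longest coding transcript of a protein-coding gene. A shared site was a merged region that held a strict peak of each library, with an overlap of at least 1 bp. Its midpoint had to be more than 1 kb from every transcription start site (TSS) of a protein-coding transcript, in no exon of one, and in no first intron of any longest transcript. Intervals here and below cover counting error only.

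DNase-seq maps open chromatin by cutting nuclear DNA with DNase I, which reaches DNA that is not packed into nucleosomes. The tissue was the gastrocnemius, the large calf muscle, of female B6CASTF1/J mice, 14 days old, whose parents were C57BL/6J and CAST. Both libraries were biological replicates of 1 group, with no treatment and no second genotype, and the label of each biosample names 3 females. They share 1 donor record, and only replicate 2 has sequencing instruments in its label, a pair of them, so sequencing and replicate cannot be told apart. Since whole tissue was used, more cells of a type and more open chromatin per cell cannot be told apart either. The promoters of all 10 muscle genes used as a check of the tissue (among them Acta1, Ckm, Des and Mylpf) were open in both libraries, with signals from 3.32 to 13.1 in replicate 1 and 2.59 to 10.1 in replicate 2.

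Introns hold much of the regulatory DNA of mammalian genes. Enhancers in introns bind transcription factors and act on the promoter of the host gene or of another gene, and some intronic sites bind CTCF, the zinc finger protein that anchors chromatin loops and domain borders. In skeletal muscle, MyoD and myogenin bind E-boxes, above all the core CAGCTG, and act together with MEF2 factors.

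Windows of 150 bp around the midpoints of 9 later-intron sites are printed first, because they show the motifs on which the results turn. They are the RefSeq sequence of GRCm38.p6 (the mm10 build, C57BL/6J; CAST alleles are not shown), plus strand, 5′ to 3′. Capitals mark matches to a consensus. The first 6 are those of the strongest sites and of the strongest sites of named muscle genes in which a CAGCTG, MEF2 or CTCF match lay under a footprint (a short stretch protected from cutting) of both libraries. Here and below, a match that overlapped a footprint by at least 1 bp counted as under it. The last 3, from Dbp, Tns1 and Mef2c, were chosen after their values were seen. In the first 4 lines the capitals mark CAGCTG, in the next 2 the CTCF core on the minus strand, in Dbp the clock-type E-box CACGTG, and in the last 2 the MEF2 consensus.
Tpm2 intron 2 (chr4:43520096-43520245): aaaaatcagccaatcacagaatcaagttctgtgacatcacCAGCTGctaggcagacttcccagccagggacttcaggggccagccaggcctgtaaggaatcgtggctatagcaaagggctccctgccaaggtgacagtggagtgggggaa
Myom1 intron 5 (chr17:71038876-71039025): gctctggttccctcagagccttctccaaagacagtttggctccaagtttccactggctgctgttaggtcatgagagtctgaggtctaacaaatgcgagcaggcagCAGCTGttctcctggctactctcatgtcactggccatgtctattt
Colq intron 11 (chr14:31537486-31537635): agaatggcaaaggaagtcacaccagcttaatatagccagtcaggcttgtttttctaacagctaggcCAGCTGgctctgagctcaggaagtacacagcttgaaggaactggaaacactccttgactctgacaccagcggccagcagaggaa
Arid3b intron 2 (chr9:57831546-57831695): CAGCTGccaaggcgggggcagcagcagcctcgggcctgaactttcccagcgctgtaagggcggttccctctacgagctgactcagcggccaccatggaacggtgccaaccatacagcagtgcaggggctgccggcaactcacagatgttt
Ldb3 intron 9 (chr14:34549466-34549615): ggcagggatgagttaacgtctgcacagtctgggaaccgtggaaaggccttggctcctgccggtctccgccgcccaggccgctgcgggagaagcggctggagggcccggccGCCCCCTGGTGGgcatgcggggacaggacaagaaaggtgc
Mef2c intron 9 (chr13:83654996-83655145): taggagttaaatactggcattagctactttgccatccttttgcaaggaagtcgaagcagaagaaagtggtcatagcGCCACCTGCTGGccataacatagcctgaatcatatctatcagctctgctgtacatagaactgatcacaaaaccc
Dbp intron 2 (chr7:45707686-45707835): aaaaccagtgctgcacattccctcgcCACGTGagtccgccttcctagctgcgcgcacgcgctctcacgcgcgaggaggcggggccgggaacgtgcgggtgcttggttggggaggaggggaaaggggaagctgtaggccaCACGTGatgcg
Tns1 intron 6 (chr1:73998598-73998747): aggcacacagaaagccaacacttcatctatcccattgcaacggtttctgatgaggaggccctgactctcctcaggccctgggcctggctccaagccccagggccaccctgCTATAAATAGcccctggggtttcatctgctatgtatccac
Mef2c intron 4 (chr13:83603946-83604095): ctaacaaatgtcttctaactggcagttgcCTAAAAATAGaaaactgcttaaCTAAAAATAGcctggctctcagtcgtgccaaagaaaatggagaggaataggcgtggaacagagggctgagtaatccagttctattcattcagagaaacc

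Later introns made up 633.3 Mb, 23.9% of the assembled genome, and held 20.3 shared open sites per Mb. First introns held 28.6 sites per Mb, intergenic DNA 14.5, and exons outside promoters 42.2. Counted in each library alone, the density in later introns was 27.5 strict peaks per Mb in replicate 1 and 24.2 in replicate 2 (25.8 ± 2.38, SD, n = 2). The corresponding values were 38.8 and 34.0 for first introns and 19.3 and 16.7 for intergenic DNA. In both libraries first introns thus ranked above later introns, by 1.41-fold in each, and later introns above intergenic DNA. The higher of the 2 later-intron values lay below the lower of the first-intron values.

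**Figure D1:**
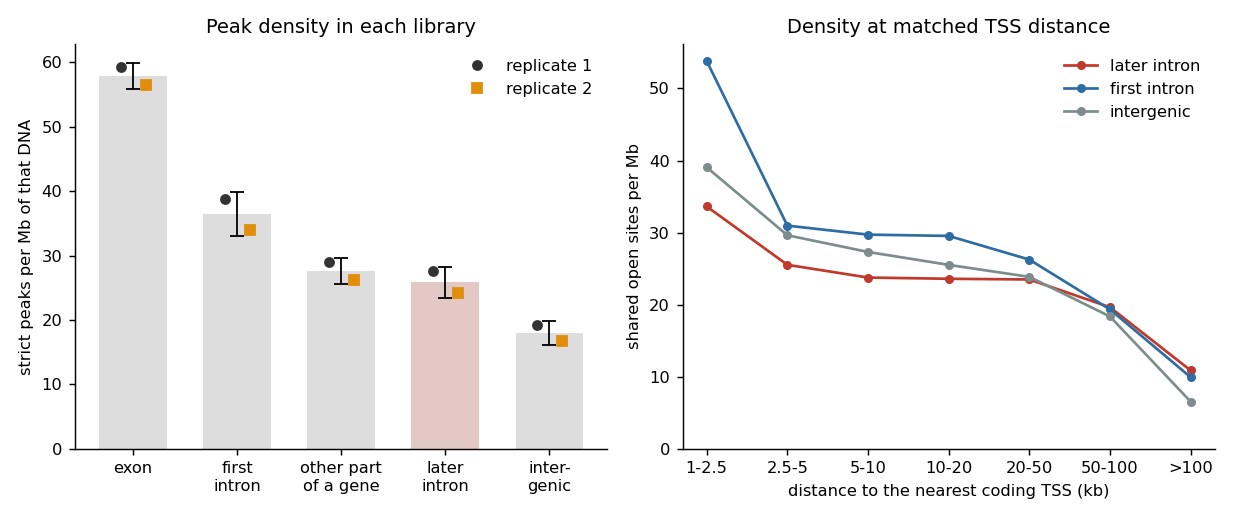
Left, strict peaks per Mb of DNA of each kind in replicate 1 (circles) and replicate 2 (squares), with bars for the mean and error bars for the SD of both libraries. Right, shared open sites per Mb by distance to the nearest coding TSS (kb, in bins); the lines for later introns, first introns and intergenic DNA are farthest apart at 1 to 2.5 kb and closest at 50 to 100 kb, where they sit at 19.6, 19.3 and 18.4.

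The order of first and later introns depended on the distance to a TSS. At 1 to 2.5 kb from the nearest coding TSS later introns held 33.6 sites per Mb, first introns 53.8 and intergenic DNA 39.1. At 5 to 10 kb the values were 23.8, 29.7 and 27.3, and at 20 to 50 kb they were 23.5, 26.3 and 23.9. Beyond 100 kb later introns stood at 10.9 sites per Mb, first introns at 9.94 and intergenic DNA at 6.55. The typical member lay 26.2 kb from the nearest coding TSS (median; quartiles 10.4 and 59.2 kb), and the farthest 902.8 kb. That TSS belonged to the host gene for 9655 members (75.3%) and to another gene for 3171 (24.7%).

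Density also varied within later introns. It was 22.4 sites per Mb in second introns, between 18.8 and 20.9 in introns 3 to 5, 20.3 in introns 6 to 10, 19.9 in introns 11 to 20, and 16.0 from intron 21 on. By length, introns under 2 kb held 24.1 sites per Mb and introns over 100 kb held 11.4. Bases within 200 bp of an exon held 24.5 sites per Mb with a median signal of 2.02 in replicate 1 and 1.84 in replicate 2. Bases over 50 kb from any exon held 7.56 sites per Mb, with median signals of 1.12 and 0.970. Short introns and stretches next to exons were thus the densest and the strongest, in both libraries. Density did not fall evenly away from exons. It was 20.9 sites per Mb at 200 to 500 bp and 20.7 at 500 to 1000 bp, then 23.5 at 1 to 2 kb and 23.2 at 2 to 5 kb. Among chromosomes the autosomes ranged from 15.8 sites per Mb of later intron (chromosome 3) to 29.4 (chromosome 11). The X chromosome stood outside that range at 5.23 sites per Mb (147 sites), with 8.22 and 6.23 peaks per Mb in replicates 1 and 2.

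Signal was taken as the authors gave it for each peak, with no stated scale. Its median over members was 1.63 in replicate 1 (quartiles 1.10 and 2.63) and 1.47 in replicate 2 (1.01 and 2.31). Sites in first introns had medians of 1.69 and 1.51, intergenic sites 1.63 and 1.45, and sites within 1 kb of a TSS 3.94 and 3.68. In each library the later-intron median was thus slightly below the first-intron one and well below that near a TSS. It was level with the intergenic one in replicate 1 and slightly above it in replicate 2. The differences from first-intron and intergenic sites were smaller than that between the libraries, whose signal scales may differ. The median width was 180 bp (quartiles 160 and 200 bp). Members had a median GC content of 54.7% against 46.7% in windows 1000 bp to each side, and 6.58% had their midpoint in soft-masked repeat sequence, which makes up 29.0% of later-intron DNA.

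The log2 difference between both libraries, set to a median of 0 over every shared site, had an SD of 0.32 over members. More than 2-fold higher in replicate 2 were 27 members (0.211%), against 0.162% of all shared sites. More than 2-fold higher in replicate 1 were 33 members (0.257%), against 0.211% of all shared sites. Both shares were close to those of all shared sites. The 2 most uneven members towards replicate 1 were in intron 8 of Tmtc2 (1.70 and 0.465) and intron 21 of Man2a1 (2.51 and 0.691). Of the strict later-intron peaks of each library, 73.8% of replicate 1 and 84.2% of replicate 2 fell in a shared site. The shares were 74.2% and 84.7% in first introns and 89.0% and 90.6% near TSSs.

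**Figure D2:**
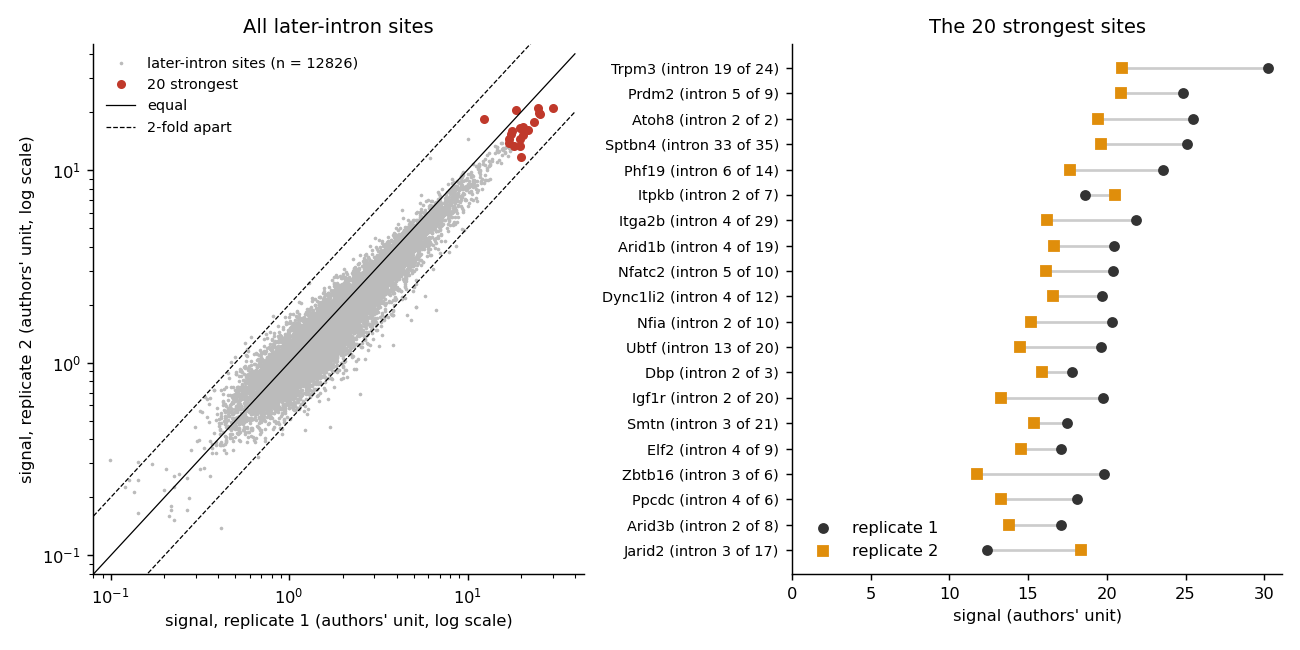
Left, signal of each of the 12826 later-intron sites in replicate 1 (x axis) and replicate 2 (y axis), both log scales in the authors' unit, with lines of equality and of a 2-fold difference; the 20 strongest are red. Right, the same signal on a linear axis for the 20 strongest sites, named by host gene and intron, where all but 2 sites (Itpkb and Jarid2) are higher in replicate 1.

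The 20 strongest later-intron sites lay in 20 genes. The strongest of all was in intron 19 of 24 of Trpm3, which encodes a cation channel (chr19:22916741-22916920; signal 30.2 and 20.99, 150.2 kb from the nearest TSS). Next came intron 5 of Prdm2, a histone methyltransferase gene (24.8 and 20.9), and intron 2 of Atoh8, a basic helix-loop-helix factor gene (25.5 and 19.4). Others of the 20 were in Phf19 and Jarid2, which encode partners of Polycomb repressive complex 2, in Arid1b, a chromatin remodeller subunit gene, and in Nfatc2, Nfia, Elf2, Zbtb16 and Arid3b, all transcription factor genes. The lowest values among the 20 were 12.4 in replicate 1 and 11.7 in replicate 2.

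These 20 sites were rich in GC and CpG. Their GC content ran from 54% to 72%, with a median of 63.7%, and 60% of them held at least 8 CpG dinucleotides in 150 bp. That share was 4.18% over all members, 8.69% in the highest of 5 equal groups of members by signal, 2.34% in the lowest, and 76.7% at sites within 1 kb of a coding TSS. Within 1 kb of a transcript start of any kind, coding or not, lay 6 of the 20, against 9.77% of all members. No CTCF match was found in the 20, and 9 of them held the SP/KLF consensus CCGCCC, against 8.79% of members.

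One of the 20 was in Dbp, the gene of a clock-controlled transcription factor, whose intronic E-boxes are textbook targets of the clock activators CLOCK and BMAL1. The site (chr7:45707661-45707860) lay in intron 2 of 3, 2.48 kb from the TSS, with signals of 17.8 and 15.9. Its window, printed above, held 2 copies of CACGTG, each under a footprint of both libraries. Over all members CACGTG was present in 3.22% of windows, against 2.31% in the flanks, and in 3 of the 20 strongest sites. In the second intron of Hlf, another clock-output factor, 4 members were found, of which the strongest (7.76 and 5.88) also held CACGTG. Arntl, which encodes BMAL1, had 8 members with signals from 0.989 to 2.78 in replicate 1 and 0.771 to 2.67 in replicate 2. Rora, which encodes a nuclear receptor that acts on Arntl, had 8, the strongest with 8.45 and 8.62.

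A CTCF core was more frequent in open sites of later introns than in those of first introns. It was matched in 1289 members (10.05%, interval 9.54 to 10.6%), in 4.51% of first-intron sites (4.02 to 5.07%) and in 9.39% of intergenic sites. It was matched in 0.0755% of the flanks of members and in 1.13% of sites near a TSS. In the peaks of replicate 1 alone the share was 8.16% in later introns, 2.29 times that in first introns, and in replicate 2 it was 8.78%, 2.21 times. The gap to first introns was thus larger than the spread between libraries, and the intervals did not overlap. Members with a CTCF core had median signals of 2.12 and 1.97, against 1.59 and 1.42 for the others.

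The share of CTCF-holding sites was higher in introns with higher numbers, up to introns 11 to 20. It was 6.18% in second introns (5.36 to 7.11%), 7.78% in intron 3, 9.96% in intron 4, 10.2% in intron 5, 11.9% in introns 6 to 10, 13.8% in introns 11 to 20 (12.3 to 15.3%) and 13.1% from intron 21 on. Peaks of each library alone ran the same way, from 4.92% in second introns to 11.1% in introns 11 to 20 in replicate 1, and from 5.33% to 11.5% in replicate 2. The share of sites with CAGCTG had no such course, with 27.0% in second introns, 23.7% in introns 11 to 20 and 27.0% from intron 21 on. Per Mb of DNA, CTCF-holding sites went from 1.29 in first and 1.38 in second introns to 2.74 in introns 11 to 20, and stood at 2.10 from intron 21 on. Sites with CAGCTG went the other way per Mb, from 7.70 in first and 6.04 in second introns to 4.72 in introns 11 to 20. From intron 21 on they stood at 4.32.

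**Figure D3:**
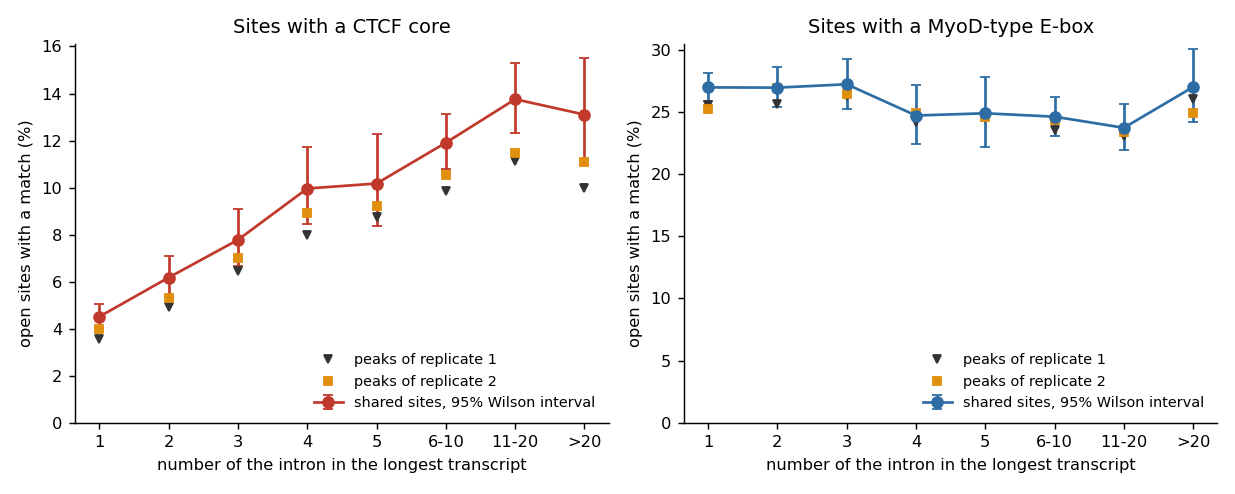
Percentage of open sites with a CTCF core (left) and with the E-box CAGCTG (right) by the number of the intron in the longest transcript. Lines join shared sites with 95% Wilson intervals, and triangles and squares are the peaks of replicates 1 and 2 alone; CTCF runs from 4.51% in first introns to 13.8% in introns 11 to 20, while CAGCTG stays between 23.7% and 27.2%.

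Both the number of cores in the DNA and the share of them in an open site were higher in introns 11 to 20 than in first introns. CTCF cores numbered 4.58 per Mb of first intron, 4.70 per Mb of second intron, 6.57 per Mb in introns 11 to 20 and 5.62 per Mb from intron 21 on. Of these cores 28.7% lay in a shared open site in first introns (26.0 to 31.7%), 30.4% in second introns (26.9 to 34.2%), 41.9% in introns 11 to 20 (38.3 to 45.7%) and 38.2% from intron 21 on (33.0 to 43.8%). Over all later introns 1325 of 3706 cores (35.8%) were anywhere in an open site, against 31.9% in intergenic DNA. For comparison, 1.78% of CAGCTG matches, 0.649% of MEF2 matches and 5.49% of NFI palindromes in later introns were in an open site. By intron number the CAGCTG value fell, from 2.63% in first introns (2.53 to 2.74%) and 2.09% in second introns (1.98 to 2.21%). It was 1.57% in introns 11 to 20 (1.46 to 1.69%) and 1.44% from intron 21 on (1.29 to 1.60%).

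The gap between later and first introns was also seen at matched distances to the TSS up to 100 kb. At 1 to 2.5 kb the CTCF share was 9.21% in later introns (7.28 to 11.6%) and 3.77% in first introns (2.85 to 4.98%). At 20 to 50 kb it was 10.5% (9.54 to 11.5%) against 4.21% (3.20 to 5.52%). Beyond 100 kb the intervals overlapped, with 6.198% in later introns (5.14 to 7.45%) and 8.92% of only 213 sites in first introns (5.78 to 13.5%). Intergenic sites were near later-intron sites at each of these distances, with 8.29%, 10.1% and 5.86%.

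Open CTCF cores of later introns pointed against the host gene slightly more often than with it. The core ran on the same strand as the gene in 592 of 1325 cases (44.7%, interval 42.0 to 47.4%). Among cores of later introns outside shared sites the share was 49.3% (47.3 to 51.3%). It was 44.6% for open cores in soft-masked repeats and 44.7% for those outside them. In first introns it was 48.4% of 273 open cores (42.5 to 54.3%), an interval that holds the later-intron value.

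Among other motifs, CAGCTG was the most frequent. It was present in 3281 members (25.6%, interval 24.8 to 26.3%), against 7.70% of the flanks, 27.0% of first-intron sites, 24.5% of intergenic sites and 11.3% of sites near a TSS. In the peaks of replicates 1 and 2 alone the later-intron shares were 24.7% and 25.2%. Members with 0, 1, 2 and 3 or more copies had median signals of 1.63, 1.67, 1.68 and 1.53 in replicate 1, so signal barely moved with the number of copies. From the lowest to the highest of the 5 signal groups the CAGCTG share went from 24.9% to 26.2%, while the CTCF share went from 5.69% to 15.7% and the SP/KLF share from 5.18% to 13.6%. CTCF was also less frequent where CAGCTG was present, at 4.30% against 12.03% of the other members.

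Some rarer motifs of muscle regulators were above the flanks too, and others were not. The MEF2 consensus was in 70 members (0.546%) against 0.201% of the flanks, and the MEF3 consensus TCAGGTTTC in 44 (0.343%) against 0.185%. The NFI palindrome was in 19 members and 2 flanks, of 23836 flanking windows. AP-1 (TGANTCA) was in 7.79% against 4.21%, TEAD (GGAATG) in 10.2% against 7.99%, CREB (TGACGTCA) in 0.327% against 0.0923%, and EBF in 1.11% against 0.373%. Below the flanks were the motif AGATAA of GATA factors (3.43% against 7.59%), SOX (ACAATG, 5.34% against 7.58%) and ERR (TCAAGGTCA, 0.172% against 0.411%). Lower too, but with overlapping intervals, were CArG (CCWWWWWWGG, 0.624% against 0.814%) and RUNX (3.03% against 3.50%). The same held for FOX (1.62% against 2.02%) and D-box (0.343% against 0.520%). The glucocorticoid half-site pair ACANNNTGT was level with the flanks at 4.55% and 4.80%. The liver motif HNF1 was found in no member of 12826, with an upper bound of 0.0299% (Wilson). It was also found in no flanking window, first-intron site or intergenic site. Its absence from members thus has no background to be set against, and nothing is read from it. Of CAGGTG matches 11.6% overlapped a CTCF core, and without those CAGGTG was in 10.99% of members against 11.7% of the flanks. Matches were exact and on either strand, GC content differed between sites and flanks, and its part in these shares was not tested. No match to any of the 26 motifs was found in 4072 members (31.7%).

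**Figure D4:**
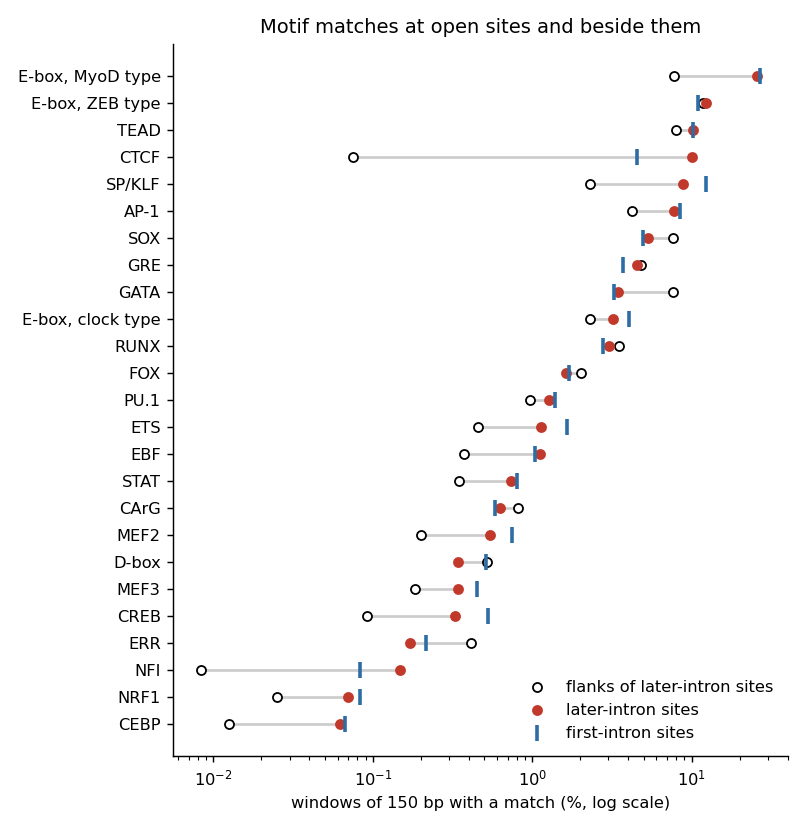
Share of 150 bp windows with at least 1 match to each consensus (percent, log scale) at later-intron sites (filled circles), in windows 1000 bp beside them (open circles) and at first-intron sites (ticks). CTCF shows the widest distance between site (10.05%) and flank (0.0755%). SOX, GATA, ERR, RUNX, FOX, CArG, D-box and, slightly, GRE are lower at the sites than beside them.

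Footprints were called at nearly every member. In replicate 1 98.2% of members and in replicate 2 97.7% held one, 96.5% (interval 96.2 to 96.8%) in both libraries and 76 sites in neither. The share in both was 94.5% in first introns, 95.3% in intergenic DNA and 85.6% near a TSS. It rose with signal, from 89.5% in the lowest signal group of members to 99.9% in the highest. A member held 2.91 footprints on average in replicate 1 and 2.68 in replicate 2.

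Motifs differed in how often a footprint overlapped them, by at least 1 bp. CTCF cores were under a footprint in 98.8% and 97.7% of 1300 matches, NFI palindromes in all 19, CREB sites in 92.9% and 88.1% of 42, and EBF sites in 90.3% and 80.6% of 144. SP/KLF matches reached 65.2% and 60.1%. CAGCTG matches reached 38.0% and 37.0%, MEF2 matches 40.8% and 29.6%, and AP-1 matches 30.2% and 26.3%. Of all bases in the windows of members, 26.7% and 23.5% lay in a footprint. These are shares of single bases, so they are not a background for the shares of matches. In the Mef2c window of intron 4 neither MEF2 match lay under a footprint of either library, and in that of Tns1 the match lay under one in both. A longer consensus can overlap a footprint more easily, and its part in this order was not tested.

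The members were spread over many genes. Of 17601 protein-coding genes with later-intron DNA, 5059 (28.7%) held at least 1 member, 2568 held exactly 1, 702 held 5 or more and 169 held 10 or more. Host genes had more later-intron DNA than genes without a member, with medians of 37.0 and 7.55 kb. In 82.5% of host genes the promoter was open in both libraries, against 64.3% of the others. Density in later introns was 22.4 sites per Mb in genes with an open promoter and 12.1 in genes without, a ratio of 1.85 (1.84 in each library alone). Of 8933 introns with a member, 6864 held a single one and 211 held 5 or more.

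Some long genes held clusters. Camta1, the gene of a calmodulin-binding transcription activator, and Msi2, which encodes an RNA-binding protein, held 29 members each, the highest number of any gene. Camta1 had 759.8 kb of later-intron DNA and Msi2 371.3 kb, hence 38.2 and 78.1 sites per Mb. Zfhx3, a zinc finger homeobox gene, held 27, Tns1, which encodes the focal adhesion protein tensin 1, held 25, and Sh3pxd2a, which encodes the podosome scaffold TKS5, held 24. The gene model Gm37240 held 26, most of them in its intron 3 of 1244.6 kb, and some of the 26 lay in an intron of Fam160a1 as well. The signals of the Camta1 members ran from 0.622 to 11.8 in replicate 1 and 0.658 to 8.55 in replicate 2. Also among the 15 genes with most members were Zbtb7c, the protease genes Adamts2 and Adamts17, Slc14a2, Rad51b, Thsd4, Klhl29, Ctif and Ttc28, with 19 to 23 each.

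The densest genes with 5 members or more were short. Lsp1, which encodes an actin-binding protein of leukocytes, held 8 members in 8.82 kb, 907.5 per Mb, and its strongest site had signals of 7.14 and 6.63. Its weakest site had 0.134 and 0.213. Nfic, which encodes nuclear factor I/C, held 12 in 16.7 kb (717.1 per Mb), with signals up to 11.6 and 9.74. Mxra7, Tspan32, Bop1, Cic, Bcl9l, Ltbp4, Atp6v0d1 and Rnd3 followed, with 362.8 to 629.7 sites per Mb. The average over all later introns was 20.3.

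**Figure D5:**
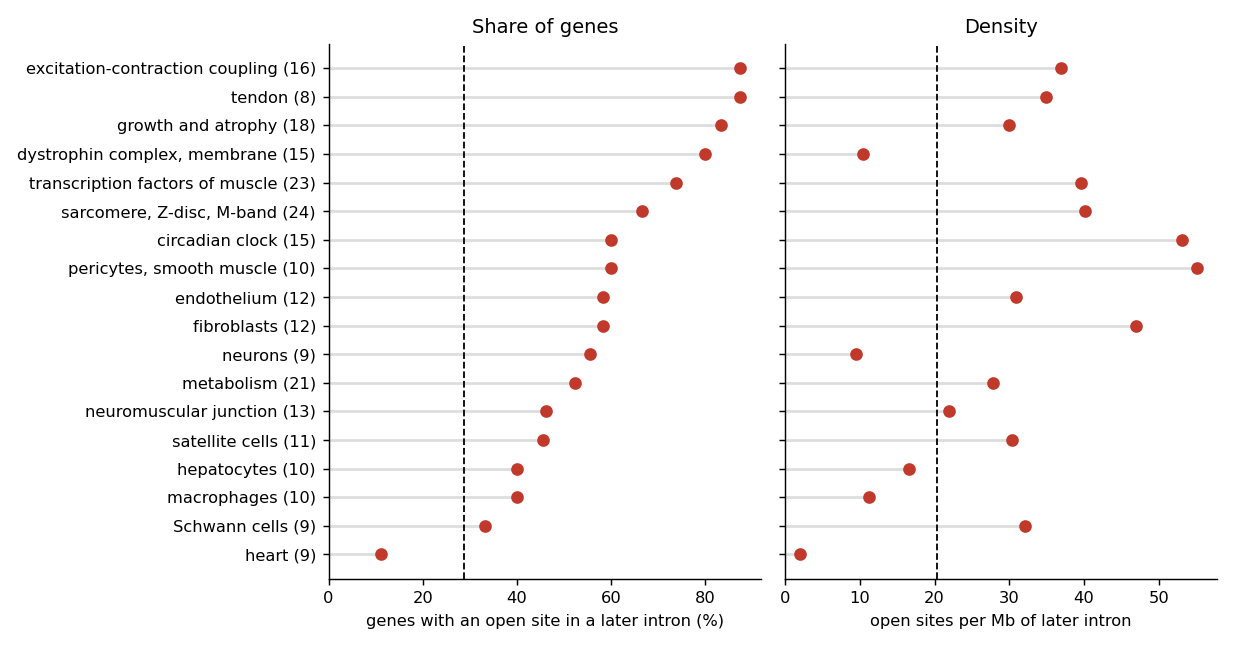
For 18 gene lists (number of genes with later-intron DNA in parentheses), the percentage of genes with at least 1 open site in a later intron (left) and open sites per Mb of later intron (right). Dashed lines mark all protein-coding genes (28.7% and 20.3 per Mb); excitation-contraction coupling reaches 87.5%, and heart genes are lowest on both scales with 11.1% and 2.06.

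Of 24 genes of the sarcomere, Z-disc and M-band, 16 (66.7%) held a member, with a median of 1.5 per gene and 40.2 sites per Mb. Over all genes with later introns 28.7% held one, with a median of 0 and 20.3 per Mb. Host shares and medians per gene compare genes of unequal length, since the median later-intron DNA per gene was 12.1 kb over all genes, 17.1 kb in this list, 49.0 kb in the list for excitation-contraction coupling and 126.3 kb in that of muscle transcription factors. Ldb3, which encodes the Z-disc protein ZASP, held 10 members in 6 introns. Its strongest (6.06 and 6.33), in intron 9, carried the CTCF core printed above, and 3 others, in introns 5 and 7, carried CAGCTG with signals of 5.14 and 3.88, 4.15 and 3.72, and 2.54 and 1.99. Tpm2, which encodes beta-tropomyosin, held 4, all in intron 2, of which the one with the CAGCTG printed above was strongest (5.85 and 5.75). Myom1, which encodes the M-band protein myomesin, held 3, of which the one in intron 5, printed above, was strongest (3.94 and 2.80) and the other 2 had 0.947 and 0.970, and 1.14 and 0.798.

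The giant sarcomere genes held few. Ttn, which encodes titin, has 346 introns in its longest transcript and 147.0 kb of later-intron DNA, and held 2 members, in intron 8 (2.61 and 3.27) and intron 222 (2.18 and 1.37), or 13.6 per Mb. Neb, which encodes nebulin, held none in 168.3 kb, although its promoter was open (2.62 and 2.23).

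Genes of excitation-contraction coupling, the step from membrane depolarisation to calcium release, were hosts in 14 of 16 cases (87.5%), with a median of 3.5 members and 36.9 per Mb. Dysf, which encodes the membrane repair protein dysferlin, held 11 members in 8 introns, from intron 4 to intron 54, with signals from 1.02 to 5.13 in replicate 1 and 0.964 to 2.94 in replicate 2. Its strongest site in replicate 1, in the last intron, had 5.13 there and 2.56 in replicate 2. Ryr1, the gene of the calcium release channel of the sarcoplasmic reticulum, held 4, in introns 13, 64, 84 and 87 of 105, with the highest signals in intron 84 (4.25 and 3.48). Cacna1s, which encodes the voltage sensor subunit, held 6, of which 4 in intron 2, and all 6 had 1.31 to 3.19 in replicate 1 and 1.54 to 3.12 in replicate 2. Bin1, whose product shapes the transverse tubules, held 5 in 25.5 kb (196.4 per Mb), up to 4.76 and 3.24 in intron 7.

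Of the genes of the dystrophin complex and membrane, 12 of 15 (80%) held a member, at 10.5 sites per Mb. That density rests largely on Dmd, the dystrophin gene on the X chromosome, which made up 2050.6 of the list's 4011.2 kb of later-intron DNA and held 5 of its 42 members, 2.44 per Mb. The signals of these 5 ran from 0.523 to 0.664 in replicate 1 and from 0.405 to 0.718 in replicate 2, all below the median of members. Ank3 held 12 members, Utrn, the gene of the dystrophin homologue utrophin, 7, and Lama2, the gene of the laminin alpha-2 chain, 5. At the neuromuscular junction 6 of 13 genes (46.2%) were hosts, at 21.9 per Mb. Chrna1, the acetylcholine receptor alpha subunit gene, held 1 member in intron 4 (4.44 and 4.21), and Dok7, which encodes an activator of the receptor kinase MuSK, held 2 in its intron 4, the stronger with 5.69 and 4.49.

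Transcription factor genes of muscle, listed together with the deacetylase genes Hdac4 and Hdac9, were hosts in 17 of 23 cases (73.9%), with a median of 3 members and 39.6 per Mb. The myogenic factor genes Myod1, Myog, Myf5 and Myf6 were not hosts, and each had only 0.264 to 0.499 kb of later-intron DNA. Nfia held 17 members, one of them among the 20 strongest of all sites (20.3 and 15.2), and Hdac4, the gene of a repressor of MEF2 factors, held 16, up to 4.71 and 3.86. Nfix, which encodes a nuclear factor I protein of fetal and later muscle, held 10 in 57.6 kb (173.6 per Mb), 8 of them in intron 2, with 2.03 to 7.14 in replicate 1 and 2.17 to 5.46 in replicate 2. Mef2c held 4, of which the strongest (3.46 and 3.54), in intron 9, carried the CTCF core printed above. Sox6, the gene of a repressor of slow fibre genes, held 6 in 456.6 kb, none above 2.27 in replicate 1.

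Growth and atrophy genes were hosts in 15 of 18 cases (83.3%) at 29.9 per Mb. Igf1r, the receptor gene of insulin-like growth factor 1, held 13, of which 11 in its second intron of 160.6 kb, with the strongest at 19.8 and 13.3. Fkbp5, a classic target of the glucocorticoid receptor, held 6, with 1.33 to 4.63 in replicate 1 and 0.844 to 4.30 in replicate 2. Among clock genes 9 of 15 (60%) were hosts at 53.1 per Mb, and among metabolic genes 11 of 21 (52.4%) at 27.8 per Mb.

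Genes that mark other cells of the muscle held members as well. Of pericyte and smooth muscle genes 6 of 10 were hosts at 55.1 per Mb, with 12 members in Mylk, the myosin light chain kinase gene. Of fibroblast genes 7 of 12 were hosts at 46.9 per Mb, of endothelial genes 7 of 12 at 30.9, of satellite cell genes 5 of 11 at 30.3, of tendon genes 7 of 8 at 34.9, of Schwann cell genes 3 of 9 at 32.1, and of macrophage genes 4 of 10 at 11.2. Pax7, which marks satellite cells, the stem cells of muscle, held 7 members (0.742 to 2.71 in replicate 1, 0.685 to 2.33 in replicate 2) without a shared promoter site. Spi1, which encodes the myeloid factor PU.1, held 1 in intron 2 (10.3 and 9.51), Pecam1, an endothelial adhesion gene, 6 up to 8.07 and 6.68, and Pmp22, a myelin gene, 3 up to 12.9 and 9.98.

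Lists for heart, liver and neurons, cell types that gastrocnemius should not hold apart from nerve, had fewer sites per Mb than the 20.3 of all genes, as had the dystrophin and macrophage lists. Their share of host genes was below the 28.7% of all genes for heart (11.1%) and above it for hepatocytes (40%) and neurons (55.6%). Heart genes were hosts in 1 of 9 cases (Ryr2, 1.28 and 1.32) at 2.06 per Mb, hepatocyte genes in 4 of 10 with 1 member each at 16.7 per Mb, and neuronal genes in 5 of 9 at 9.56 per Mb. The heart values rest largely on Ryr2, which made up 371.5 of that list's 484.8 kb of later-intron DNA. Its genes Nppa, Nppb and Myl7 had only 0.052 to 0.872 kb each. The neuronal list has very long introns, with a median of 311.4 kb per gene against 12.1 kb over all genes, and Rbfox3 alone held 19 of its 42 members. A host gene need not be the gene a site acts on, and expression was not measured here.

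Lmbr1 is known for a limb enhancer in intron 5 that acts on the distant gene Shh. It held 1 member, in intron 5 (chr5:29293321-29293480; 1.13 and 1.28), and whether this is that enhancer was not tested. At the 1 kb limit of the rule, the nearest members were beside Cd63 (1002 bp, 2.06 and 2.25) and Cope (1004 bp, 1.62 and 1.10), and the nearest sites left out were beside Zfp521 (999 bp, 1.92 and 2.21) and Fes (998 bp, 8.13 and 7.27). The start of a noncoding gene lay within 1 kb of 349 members (2.72%), 189 of them beside a long noncoding RNA gene and 54 beside a miRNA gene.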

How the data were processed

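The deposited files were strict and permissive peak lists with a signal per peak, made by the authors for each library on mm10 without pooling, and footprint lists that carry 1 false discovery rate (q-value) of 0.01 throughout, as deposited by the authors and described in the text file deposited beside each library. The sources used here give no aligner, caller, read totals or scale of the signal. Strict peaks numbered 87558 in replicate 1 and 79562 in replicate 2, and these counts limit the precision. The per-base false discovery rate files were not used.

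Positions came from GENCODE M21. The longest transcript was the coding one with the largest summed exon length, and exons and TSSs were those of all coding transcripts. Each base was given the class its midpoint would have, which gave the denominators per Mb. Motifs were exact matches on either strand in 150 bp windows, with flanks centred 1000 bp away that overlapped no permissive peak. With 1 group of 2 libraries no test was made. Shares carry 95% Wilson intervals. Members, gene lists, motifs and rules were chosen with earlier results of these data known.

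Named were the 20 members of highest mean signal, the 15 genes with most members, the 10 densest with at least 5, of each list up to 3 genes with most members, and a fixed set (Ttn, Neb, Dmd, Ryr1, Bin1, Dysf, Sox6, Nfix, Mef2c, Myom1, Lmbr1). Others were named after their values were seen. Scripts ran in Python 3.11.15 with numpy 2.4.6, pandas 2.3.3 and scipy 1.17.1. The merging of peaks was tried on simulated data, where all 1050 planted shared sites were recovered. They were planted from the same map of classes that scored them, so this could not reveal an error in that map. The alternatives are given in the closing section.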

Additional observations from a re-analysis of the deposited data

How the results depend on the processing

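No paired analysis was possible because there is 1 group. The definition of gene models changed little. With the longest transcript by span, exons of all transcripts, TSSs of all genes, a TSS distance of 2500 bp, or (added after seeing the data) starts of all transcripts of coding genes, the number of later-intron sites ran from 11573 to 13593, within 1.5 times the 12826 reported.
The choice of peaks moved levels. Permissive lists gave 22136 sites, 35.0 per Mb, a median signal of 1.01, CAGCTG in 24.8%, CTCF in 7.09% and footprints in both libraries in 86.1%. The stronger 50% of peaks gave 5730 sites, 9.05 per Mb, 2.63, CTCF in 14.2% and footprints in 99.3%. A reciprocal overlap of 50% gave CTCF in 10.6%, and a 200 bp window gave CAGCTG in 29.8%.
Why these moved was not tested. Of the results tried, only the ratios of densities and of CTCF shares have a direction, and neither changed direction in any alternative. Comparisons with flanks and intergenic DNA, by intron number and of the strand of CTCF cores were not repeated under the alternatives. The alternatives for the CTCF share and its ratio were added after seeing the data.
The ratio of later-intron to first-intron density, 0.709 as reported, was 0.715 with permissive lists, 0.686 with the stronger 50%, 0.715 with reciprocal overlap, 0.726 by span, 0.778 at 2500 bp and 0.708 with all starts, always below 1. The ratio of CTCF shares, 2.23 as reported, was 2.31 with the stronger 50%, 2.06 by span and 2.15 at 2500 bp.
Leaving out the peaks of a replicate gave 15301 to 17435 sites, 24.2 to 27.5 per Mb, density ratios of 0.709 to 0.711 and median signals of 1.30 to 1.31. CAGCTG was in 24.7 to 25.2%, CTCF in 8.16 to 8.78%, and the ratios of CTCF shares were 2.21 to 2.29. The footprint lists of both replicates were kept in these runs, and 84.9 to 86.4% of sites held a footprint in both libraries. Read depth is unknown, so weak sites missed in 1 library cannot be told apart from closed ones.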
